A study of Mus musculus with 56 samples.

Results

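Monocytes and macrophages were sorted from a healing skull defect in mice treated to deplete regulatory T cells (Tregs). Their RNA at day 10 after injury was set against that at day 7. These cells gave 8 of the 56 libraries of the study, 3 at day 10 and 5 at day 7, taken by the tissue, treatment and day in the labels. Bulk RNA sequencing from the 3′ ends of transcripts was used throughout, in injured bone, muscle, skin and heart of depleted and control mice. The depleted mice were Foxp3(DTR/GFP) mice (FDG), which express the diphtheria toxin receptor from the Foxp3 locus, so that diphtheria toxin (DT) kills cells expressing Foxp3. Control mice were wild-type C57BL/6J. All mice were 10 weeks old and all received DT at 20 ng/g, begun 2 days before the injury, given daily up to it and then every 2 days for 1 week. The labels do not name the surface markers of the sort. The control group therefore carries the toxin as well, and genotype and depletion cannot be told apart. Day 7 falls at the end of the toxin course and day 10 after it, so that time after injury and time off the toxin cannot be told apart either. Whether Tregs were still depleted at day 10 was not measured in these libraries. The series text names days 4 and 7 for all tissues, whereas the labels of the bone libraries give days 7 and 10, and the labels were followed. Names of the day-10 data columns carry 2 numbers after the genotype where those of day 7 carry 1, with no statement of what they stand for in the sources used here. Nothing in the labels says whether replicate libraries are separate animals, and p-values therefore reflect only how far these libraries spread, in part perhaps for technical reasons.

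Monocytes that enter a wound first take on an inflammatory state, in which interferons from T cells, NK cells and the injured tissue switch on antiviral and antigen-processing genes through STAT and IRF transcription factors. As repair goes on, the cytokines IL-4 and IL-13 act through STAT6 to switch on a type 2 program with genes such as Arg1, Retnla and Ccl17, and macrophages supply growth factors, proteases and lipid uptake. Tregs are known to restrain interferon-gamma and inflammatory monocytes in injured tissue, and in bone the monocyte lineage also gives rise to osteoclasts, the cells that resorb bone.

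Total counts per library were 2817484 to 3075124 at day 10 and 3541901 to 5835113 at day 7 in depleted mice, and 2369181 to 3602404 at day 10 and 2318268 to 4285921 at day 7 in the 8 control bone libraries. Levels are in CPM, rounded counts as a share of the TMM-scaled library total. The 12 macrophage identity genes summed to 8715 to 10896 CPM at day 10, against 8644 to 12834 CPM at day 7, and none was at 0. Neutrophil markers summed to 19526 to 35507 CPM at day 10, against 9906 to 30332 CPM at day 7, and these markers were not absent from any library although the sorted cells are labelled monocytes and macrophages. Foxp3, the targeted locus, had 3 counts over the 3 day-10 libraries and 7 over the 5 day-7 libraries, too few to test. Cells sorted as macrophages would not express it, so these counts are no check of depletion. Among the depleted day-7 libraries, replicate 3 stood apart with Cxcl9 at 189.8 CPM and Arg1 at 368 CPM, against 6.59 to 29.1 CPM and 23.2 to 85.4 CPM in the other 4. Replicates 4 and 5 of that group held fibroblast and mural cell markers at 240.7 and 240.6 CPM, against 1036 to 2458 CPM in the other 3. In bulk RNA, fewer cells of a type and less RNA per cell cannot be told apart.

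In depleted cells, 15 of 42 interferon-induced genes and 12 of 38 genes of dividing cells were lower at day 10 than at day 7. Higher were 5 of 20 type 2 genes, 5 of 21 growth factor genes, 7 of 26 cytokine and chemokine genes, 11 of 23 immediate early genes and 9 of 12 mitochondrially encoded transcripts. Of 12709 genes tested, 1547 (12.2%) passed a Benjamini-Hochberg adjusted p of 0.05 in the quasi-likelihood test of edgeR, 906 higher (7.13%) and 641 lower (5.04%). The rises were the larger changes, with 158 genes at least 4-fold higher and 14 at least 4-fold lower. The 3 day-10 libraries lay wholly above or below the 5 day-7 libraries for 2772 genes (21.8%). How many genes passed changed when single day-10 libraries were left out, which also lowers the power of the test. 557 passed without replicate 3 of day 10, 852 without replicate 1 and 1224 without replicate 2, and 867 passed without the day-7 replicates 4 and 5 that held the fewest fibroblast transcripts.

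**Figure D1:**
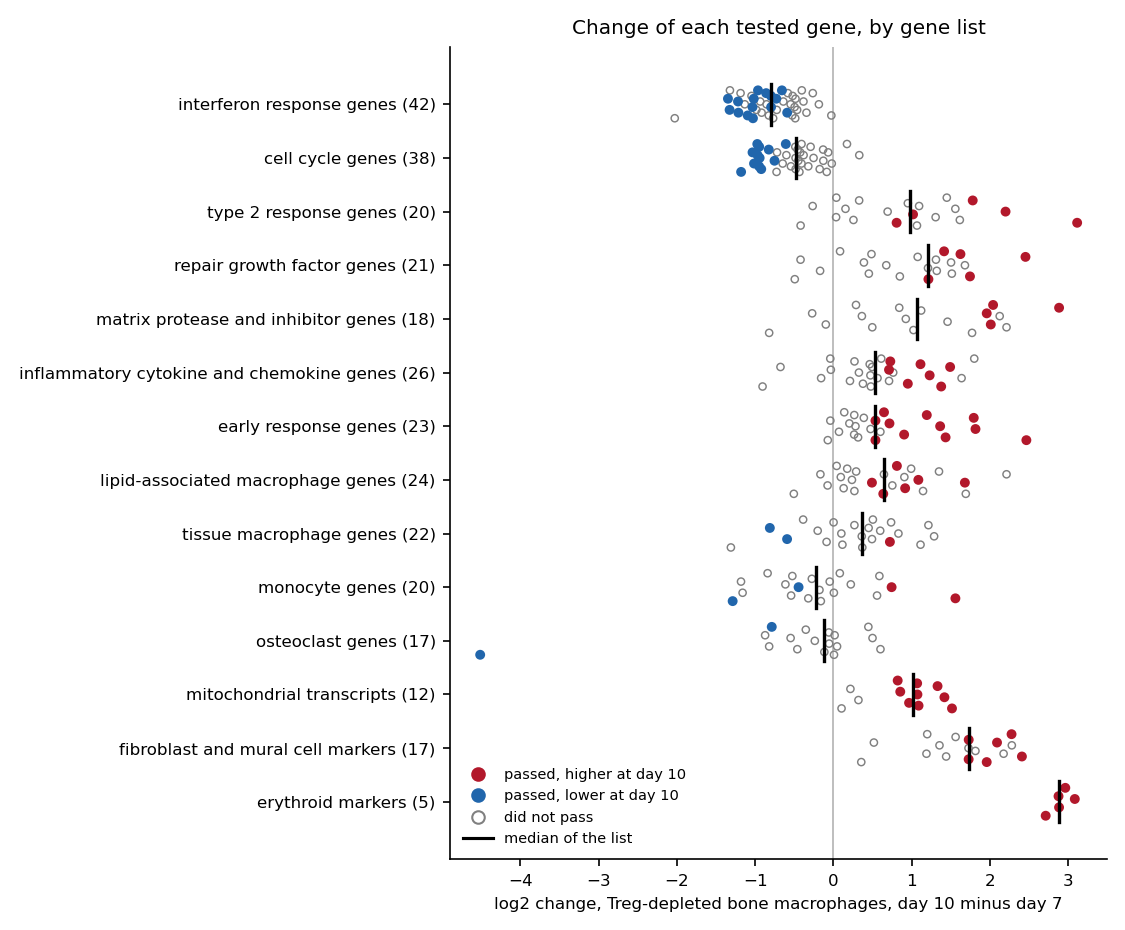
Each circle is a tested gene of the list named on the left (number tested in brackets), placed by its log2 change between day 10 and day 7 in depleted bone macrophages; filled circles passed an adjusted p of 0.05 and black bars are list medians. All 42 interferon response genes lie left of 0, with a median of -0.80, and all 12 mitochondrial transcripts lie right of it, with a median of 1.02.

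Interferon response genes were lower at day 10, in their summed level and in the direction of each tested member. Of the 42 that could be tested of 44 listed, 15 fell, 0 rose and 27 did not pass, and all 42 had a negative log2 change (median -0.80, beside 0.00051 over all genes tested). Over all genes tested, 5.04% fell. Summed, the list held 3366, 3406 and 3350.3 CPM in the day-10 libraries, against 4974, 4893, 7549, 5697 and 4199 CPM in the day-7 libraries. The day-10 sums were nearly equal and lay below each of the day-7 sums. The number of members that fell was 13 without the day-7 replicate 3, 15 without the day-7 replicates 4 and 5, 6 without replicate 1 of day 10 and 8 without its replicate 3.

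Sensors and signal carriers of the pathway were among the members that fell. Oasl2 (ENSMUSG00000029561, GRCm38 chromosome 5, 114896936 to 114912234), an antiviral protein of the oligoadenylate synthetase family, had 16.9, 36.2 and 25.6 CPM at day 10, against 52.6, 58.4, 97.9, 68.1 and 57.0 CPM at day 7. The groups did not overlap (log2 change -1.35 ± 0.29 SE, edgeR adjusted p = 0.00615). Zbp1, a sensor of viral nucleic acid in the Z form that can start cell death, had 58.8, 68.6 and 65.8 CPM at day 10, against 119, 121, 152, 133 and 102 CPM at day 7. All day-10 libraries were lower, and they differed little among themselves (log2 change -0.96 ± 0.19 SE, edgeR adjusted p = 0.00282). Irf7, a transcription factor that amplifies the type I interferon response, had 102, 133 and 113 CPM at day 10, against 203, 242, 392, 249 and 256 CPM at day 7. It was lower in every day-10 library (log2 change -1.21 ± 0.29 SE, edgeR adjusted p = 0.0119), with an adjusted p of 0.0586 without replicate 1 of day 10 and 0.0619 without replicate 3. Usp18, a protease that removes the ubiquitin-like ISG15 and dampens the interferon receptor, was at 11.2 ± 2.27 CPM at day 10 and 28.2 ± 5.70 CPM at day 7 (log2 change -1.33 ± 0.33 SE, edgeR adjusted p = 0.0128). Usp18 had an edgeR adjusted p of 0.0502 and 0.0853 without replicates 1 and 3 of day 10.

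Some antigen-processing genes of the same list fell. Psmb8, a catalytic subunit of the immunoproteasome, had 721, 719 and 633 CPM at day 10, against 1220.4, 1237, 1359, 1114 and 1067 CPM at day 7. The highest day-10 library lay far below the lowest day-7 library (log2 change -0.80 ± 0.14 SE, edgeR adjusted p = 0.00126). Tap1, which pumps peptides into the endoplasmic reticulum for MHC class I, had 155, 189.8 and 155 CPM at day 10, against 266, 253, 356, 292 and 214 CPM at day 7. Its groups were separate as well (log2 change -0.73 ± 0.16 SE, edgeR adjusted p = 0.00585). Psmb10, another immunoproteasome subunit, was at 304 ± 16.2 CPM at day 10 and 457 ± 56.5 CPM at day 7 (log2 change -0.59 ± 0.14 SE, edgeR adjusted p = 0.00918). Psmb10 had an edgeR adjusted p of 0.0597 without replicate 3 of day 10. Tap2, the partner of Tap1, fell as well (log2 change -0.66, edgeR adjusted p = 0.0387), with its call lost in 5 of the 16 fits that each left out 1 library, with an adjusted p of up to 0.165, whereas Psmb9, a further immunoproteasome subunit, did not pass (log2 change -0.03, edgeR adjusted p = 0.935). Ifi47, an interferon-inducible GTPase outside antigen processing, was at 91.5 ± 9.79 CPM at day 10 and 187 ± 54.0 CPM at day 7 (log2 change -1.03 ± 0.24 SE, edgeR adjusted p = 0.00863). Zbp1, Psmb8, Psmb9, Tap1, Tap2, Psmb10 and Ifi47 were chosen after their values were seen. The chemokine gene Cxcl9, whose protein draws in T cells, did not pass, with 19.5, 21.3 and 28.2 CPM at day 10, against 26.0, 10.3, 189.8, 29.1 and 6.59 CPM at day 7. Its groups overlapped and replicate 3 of day 7 alone was high (log2 change -1.19 ± 0.87 SE, edgeR adjusted p = 0.41). Gbp2, an interferon-induced guanylate-binding protein, did not pass either (61.5 ± 13.7 CPM at day 10 and 116 ± 84.1 CPM at day 7, log2 change -0.92 ± 0.44 SE, edgeR adjusted p = 0.192).

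The interferon-stimulated response element, bound by STAT2 with IRF9 and by other IRF factors, was looked for as GAAANNGAAA on both strands in the window from 250 bases before to 50 bases after each gene's start. The sequences of Oas3, Stat2 and Igtp are shown because these genes fell and their windows hold the element, in capitals (RefSeq, GRCm38.p6, 5′ to 3′ along the gene).
Oas3 (chr5:120777610-120777909, minus strand): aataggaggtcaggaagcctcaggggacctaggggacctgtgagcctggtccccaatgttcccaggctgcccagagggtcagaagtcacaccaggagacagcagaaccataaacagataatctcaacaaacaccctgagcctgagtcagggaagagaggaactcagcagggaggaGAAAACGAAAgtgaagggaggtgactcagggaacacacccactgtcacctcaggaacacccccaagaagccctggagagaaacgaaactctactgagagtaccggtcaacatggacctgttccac
Stat2 (chr10:128270248-128270547, plus strand): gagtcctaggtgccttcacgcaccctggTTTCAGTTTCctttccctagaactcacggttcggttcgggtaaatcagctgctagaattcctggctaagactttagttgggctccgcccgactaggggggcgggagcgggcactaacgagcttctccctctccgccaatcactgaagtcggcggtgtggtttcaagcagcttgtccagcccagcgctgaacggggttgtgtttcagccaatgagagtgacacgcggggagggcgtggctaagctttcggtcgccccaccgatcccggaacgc
Igtp (chr11:58199306-58199605, plus strand): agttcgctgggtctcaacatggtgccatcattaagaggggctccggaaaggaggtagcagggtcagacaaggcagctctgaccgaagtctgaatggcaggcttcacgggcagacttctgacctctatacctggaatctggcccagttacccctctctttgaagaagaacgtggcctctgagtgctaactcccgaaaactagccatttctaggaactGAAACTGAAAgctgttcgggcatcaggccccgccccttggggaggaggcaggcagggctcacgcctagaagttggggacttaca
Oas3 makes the oligoadenylates that activate RNase L and was at 9.58 ± 4.26 CPM at day 10 and 22.3 ± 4.63 CPM at day 7 (log2 change -1.22 ± 0.31 SE, edgeR adjusted p = 0.0143). Oas3 had an edgeR adjusted p of 0.0873 without replicate 1 of day 10, and its counts were fractional in 11 of 16 libraries. Stat2, a signal carrier of type I interferons, was at 17.9 ± 7.79 CPM at day 10 and 32.6 ± 6.25 CPM at day 7 (log2 change -0.86 ± 0.25 SE, edgeR adjusted p = 0.0274). Igtp, a GTPase that acts on vacuoles with parasites, was at 48.3 ± 10.3 CPM at day 10 and 103 ± 43.6 CPM at day 7 (log2 change -1.09 ± 0.31 SE, edgeR adjusted p = 0.0283). Both were chosen after their values were seen. Stat2 lost its call in 3 of the 16 fits that each left out 1 library, with an adjusted p of up to 0.156, and Igtp in 4 of the 16 fits that each left out 1 library, with an adjusted p of up to 0.144. The element was present for 5 of the 11 interferon response genes that fell and have an entry in the promoter table, and for 15 of 21 that did not pass. Over all 27025 genes with an entry, 3.99% had it.

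Genes of dividing cells were lower in sum as well. Of 38 cell cycle genes, all tested, 12 fell, 0 rose and 26 did not pass, and 36 had a negative log2 change (median -0.48). Falls made up 5.04% of all genes tested. Their summed level was 3305, 3028 and 3050.3 CPM at day 10, against 4040.5, 4337, 3603, 4629 and 5152 CPM at day 7. Every day-10 library was below every day-7 library. The number that fell was 6 without replicate 1 of day 10, 6 without its replicate 3 and 6 without the day-7 replicates 4 and 5. Prc1 (ENSMUSG00000038943, GRCm38 chromosome 7, 80294450 to 80316259), a cross-linker of spindle microtubules needed for cytokinesis, had 119, 137 and 112 CPM at day 10, against 259, 276, 228, 219 and 258 CPM at day 7. The groups were well apart (log2 change -1.01 ± 0.21 SE, edgeR adjusted p = 0.00458). Ccnb1, which encodes cyclin B1 and drives entry into mitosis, had 96.6, 84.9 and 78.7 CPM at day 10, against 168, 188, 137, 204 and 285 CPM at day 7. No library of day 10 reached the day-7 range (log2 change -1.18 ± 0.24 SE, edgeR adjusted p = 0.00394), though its counts were fractional in 13 of 16 libraries. Hells, a chromatin remodeller of replicating cells, was at 38.1 ± 5.88 CPM at day 10 and 74.8 ± 11.6 CPM at day 7 (log2 change -0.97 ± 0.19 SE, edgeR adjusted p = 0.00335). Tpx2, a spindle assembly factor, was at 67.1 ± 9.76 CPM at day 10 and 129.7 ± 20.1 CPM at day 7 (log2 change -0.95 ± 0.21 SE, edgeR adjusted p = 0.00667). Plk1, a mitotic kinase, was at 15.1 ± 2.75 CPM at day 10 and 29.6 ± 5.86 CPM at day 7 (log2 change -0.97 ± 0.27 SE, edgeR adjusted p = 0.0216). Plk1 had an edgeR adjusted p of 0.107 and 0.0676 without replicates 1 and 3 of day 10. Top2a, the topoisomerase that untangles chromosomes, was at 219 ± 7.10 CPM at day 10 and 334 ± 34.4 CPM at day 7 (log2 change -0.61 ± 0.18 SE, edgeR adjusted p = 0.0347), and its call was lost in 7 of the 16 fits that each left out 1 library, with an adjusted p of up to 0.108. Mki67, a proliferation marker, did not pass (78.4 ± 13.1 CPM at day 10 and 97.8 ± 9.80 CPM at day 7, log2 change -0.32 ± 0.21 SE, edgeR adjusted p = 0.351). Tpx2 and Plk1 were chosen after their values were seen.

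Promoters of mitotic genes commonly carry a cell cycle homology region, TTTGAA, and CCAAT boxes, CCAAT, which were searched on both strands. The windows of Prc1 (1 of 2 listed for the gene) and Plk1 hold each of them, in capitals and without overlap between the motifs (RefSeq, GRCm38.p6).
Prc1 (chr7:80294201-80294500, plus strand): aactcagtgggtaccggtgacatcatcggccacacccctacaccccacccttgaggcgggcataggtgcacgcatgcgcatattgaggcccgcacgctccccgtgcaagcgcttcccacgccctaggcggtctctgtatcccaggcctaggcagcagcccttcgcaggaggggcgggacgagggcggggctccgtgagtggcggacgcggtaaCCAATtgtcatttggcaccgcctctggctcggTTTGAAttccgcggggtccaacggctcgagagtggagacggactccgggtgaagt
Plk1 (chr7:122159185-122159484, plus strand): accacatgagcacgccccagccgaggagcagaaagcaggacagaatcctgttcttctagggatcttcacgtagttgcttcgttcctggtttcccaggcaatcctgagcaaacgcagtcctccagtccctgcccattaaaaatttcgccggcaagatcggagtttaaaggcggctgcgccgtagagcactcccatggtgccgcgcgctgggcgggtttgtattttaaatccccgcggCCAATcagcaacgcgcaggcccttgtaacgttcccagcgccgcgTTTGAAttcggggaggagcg
Of the 9 cell cycle genes that fell and have an entry, 6 had the homology region and 8 a CCAAT box, and of 22 that did not pass, 8 and 16 had them. Over all genes with an entry the shares were 20.2% for the homology region and 41.1% for the CCAAT box.

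Among the 10 largest falls under the rule for named genes, most genes were low in level. That rule takes only genes whose day-10 and day-7 libraries do not overlap, so their separation was set by the choice. Tgtp1 and Tgtp2, a near-identical pair of interferon-inducible T cell-specific GTPase genes, had log2 changes of -2.03 and -1.91. Because reads of these copies may have been divided between them, the level of each is uncertain; Tgtp2 was at 21.6 ± 7.77 CPM at day 10 and 81.2 ± 44.2 CPM at day 7 (log2 change -1.91 ± 0.39 SE, edgeR adjusted p = 0.00467). Nlrc4, an inflammasome protein that senses bacterial proteins, had 3.60, 3.20 and 2.66 CPM at day 10, against 12.9, 19.2, 17.5, 12.7 and 4.58 CPM at day 7. Nlrc4 fell (log2 change -2.09 ± 0.53 SE, edgeR adjusted p = 0.0137), with an adjusted p of 0.0789 without replicate 3 of day 10. Rap1gap2, a GTPase-activating protein for Rap1, had 2.16, 4.97 and 3.32 CPM at day 10, against 15.5, 7.14, 19.0, 14.9 and 12.3 CPM at day 7. Its log2 change was -1.97 ± 0.35 SE (edgeR adjusted p = 0.00144). Dab2ip, a Ras GTPase-activating protein, had 0.360, 0.355 and 1.33 CPM at day 10, against 1.96, 3.66, 2.74, 6.41 and 10.3 CPM at day 7. It spread widely at day 7 (log2 change -2.77 ± 0.75 SE, edgeR adjusted p = 0.0193), and its call was lost in 2 of the 16 fits that each left out 1 library, with an adjusted p of up to 0.0853 (log2 change -3.67 without replicate 3 of day 10). The other 5 were Pigo, Lins1, Dscc1, Unk and Abhd18, with log2 changes of -2.02, -1.93, -1.84, -1.79 and -1.73, each at or below 12.9 CPM in all 8 libraries. Their calls were lost in 3 to 5 of the 16 fits that each left out 1 library, always without replicate 3 of day 10 (adjusted p = 0.169 for Pigo, 0.111 for Lins1, 0.0968 for Dscc1, 0.066 for Unk and 0.0912 for Abhd18). The log2 change of Pigo was -2.85 and -1.42 without replicates 2 and 3 of day 10, and that of Dscc1 -2.50 without replicate 1. Counts of Abhd18 were fractional in 12 of 16 libraries. Irf8, a transcription factor of monocytes and dendritic cells that also serves interferon-gamma responses, fell with little spread. It had 123, 132 and 114 CPM at day 10, against 194, 199.9, 231, 212 and 213 CPM at day 7. The day-10 libraries were all below the day-7 libraries (log2 change -0.77 ± 0.11 SE, edgeR adjusted p = 0.00035).

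**Figure D2:**
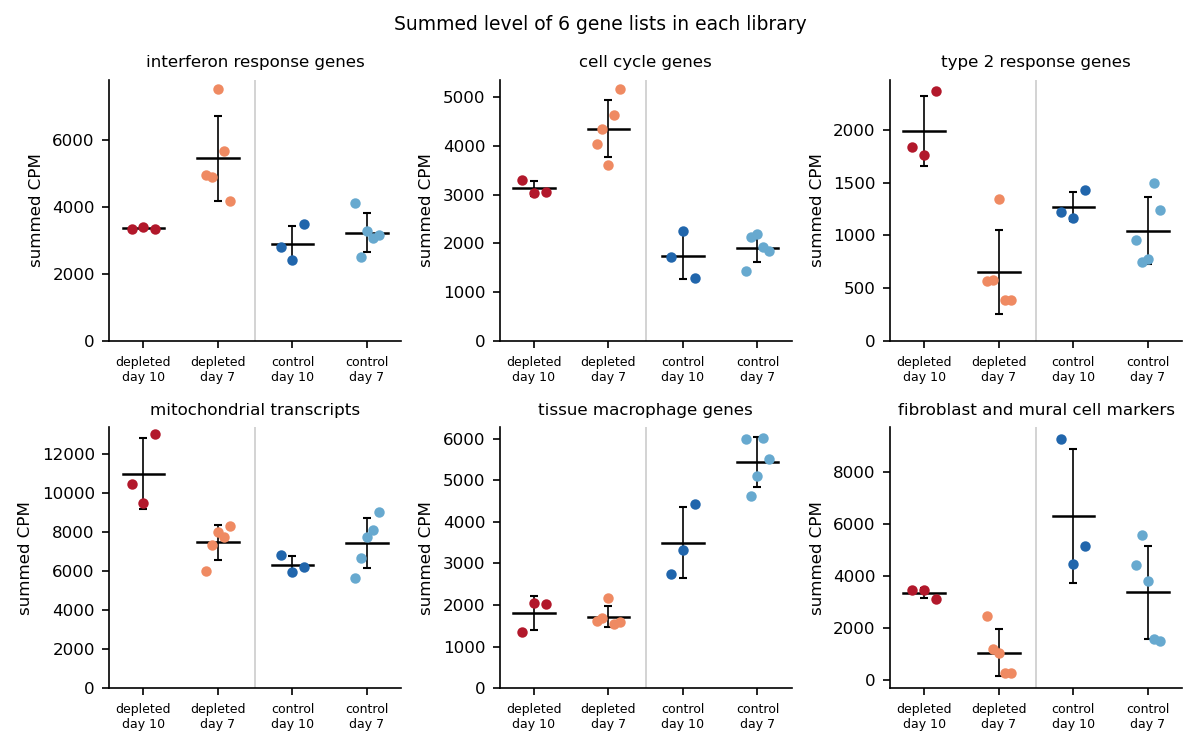
Points are libraries, bars are group means and whiskers are SD; the vertical axis is the summed CPM of a gene list, with depleted day 10, depleted day 7, control day 10 and control day 7 from left to right. Interferon response genes sum to 3350.3 to 3406 CPM at day 10 in depleted cells, below all depleted day-7 libraries, while fibroblast markers are higher at day 10 than at day 7 in depleted cells.

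The summed level of type 2 genes was higher at day 10. Of 20 tested of 21 listed, 5 rose, 0 fell and 15 did not pass, while 18 had a positive log2 change (median 0.99); 7.13% of all genes tested rose. The list summed to 1838, 1762 and 2365 CPM at day 10, against 567, 578, 1343, 385 and 388 CPM at day 7. All day-10 libraries were above all day-7 libraries, of which replicate 3 was by far the highest. Retnla, Arg1 and Ccl17 made up most of the day-10 sum (means of 735, 353 and 311 CPM beside 1988 CPM for the list). Retnla (ENSMUSG00000061100, GRCm38 chromosome 16, 48842551 to 48844461), a secreted marker of macrophages exposed to IL-4, had 604, 705 and 896 CPM at day 10, against 63.3, 48.9, 269, 23.9 and 17.8 CPM at day 7. The groups were separate (log2 change 3.12 ± 0.89 SE, edgeR adjusted p = 0.0404), but the call was lost in 10 of the 16 fits that each left out 1 library, with an adjusted p of up to 0.12, and the log2 change was 4.25 without replicate 3 of day 7. Ccl17, a chemokine for CCR4-bearing T cells, had 398, 229 and 306 CPM at day 10, against 90.4, 89.6, 118, 24.2 and 14.9 CPM at day 7. Each day-10 library was higher than each day-7 library (log2 change 2.20 ± 0.54 SE, edgeR adjusted p = 0.0192), with adjusted p = 0.0712 and 0.0648 without replicates 1 and 3 of day 10. Il4, the type 2 cytokine itself, had 15.5, 13.9 and 9.97 CPM at day 10, against 1.31, 2.93, 1.48, 4.96 and 8.59 CPM at day 7. It was higher in the 3 day-10 libraries (log2 change 1.78 ± 0.51 SE, edgeR adjusted p = 0.0257), and lost its call in 4 of the 16 fits that each left out 1 library, with an adjusted p of up to 0.107. Clec4n, the fungal receptor Dectin-2, was at 104 ± 24.1 CPM at day 10 and 51.5 ± 12.6 CPM at day 7 (log2 change 1.02 ± 0.26 SE, edgeR adjusted p = 0.0168). Clec4n had an edgeR adjusted p of 0.0728 and 0.0946 without replicates 1 and 3 of day 10. Ear2, the fifth member, belongs to a family of near-identical ribonuclease genes and is uncertain (log2 change 0.81, edgeR adjusted p = 0.0381, lost in 6 of the 16 fits that each left out 1 library, with an adjusted p of up to 0.163).

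Arg1, which converts arginine to ornithine and is a standard marker of type 2 macrophages, had 272, 319 and 469 CPM at day 10, against 60.0, 85.4, 368, 23.2 and 38.7 CPM at day 7. The groups overlapped because replicate 3 of day 7 lay within the day-10 range, and Arg1 did not pass (log2 change 1.62 ± 0.74 SE, edgeR adjusted p = 0.178). Mrc1, the mannose receptor, did not pass either (76.2 ± 41.1 CPM at day 10 and 31.2 ± 21.0 CPM at day 7, log2 change 1.29 ± 0.46 SE, edgeR adjusted p = 0.0811). The count of type 2 genes that rose was 8 without replicate 3 of day 7, 3 without its replicates 2, 4 and 5 in turn, 2 without the day-7 replicates 4 and 5 together, 2 without replicate 2 of day 10, and 0 without replicate 1 of day 10 and without its replicate 3. Mast cell and basophil markers, cells that make IL-4, summed to 2126 to 4090.1 CPM at day 10, against 797 to 5184 CPM at day 7, with 0 of 11 tested members called (10 positive), and eosinophil markers to 396 to 429 CPM at day 10, against 61.8 to 391 CPM at day 7, with 0 of 7 called (7 positive). Their part in the rise of Il4 was not tested. A STAT6 site was looked for as TTCNNNNGAA, which reads the same on both strands, and the window of Retnla is shown because it rose the most of the list and holds the site, in capitals (RefSeq, GRCm38.p6).
Retnla (chr16:48842359-48842658, plus strand): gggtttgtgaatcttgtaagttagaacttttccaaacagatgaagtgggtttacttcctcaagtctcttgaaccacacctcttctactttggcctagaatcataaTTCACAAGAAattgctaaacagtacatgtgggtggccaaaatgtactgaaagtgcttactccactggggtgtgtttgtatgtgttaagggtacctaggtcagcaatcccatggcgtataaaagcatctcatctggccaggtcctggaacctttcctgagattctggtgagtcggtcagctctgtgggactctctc
Of the 4 type 2 genes that rose and have an entry, 3 had the site (Retnla, Ccl17 and Il4), against 1 of 10 that did not pass and 8.01% of all genes with an entry.

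**Figure D3:**
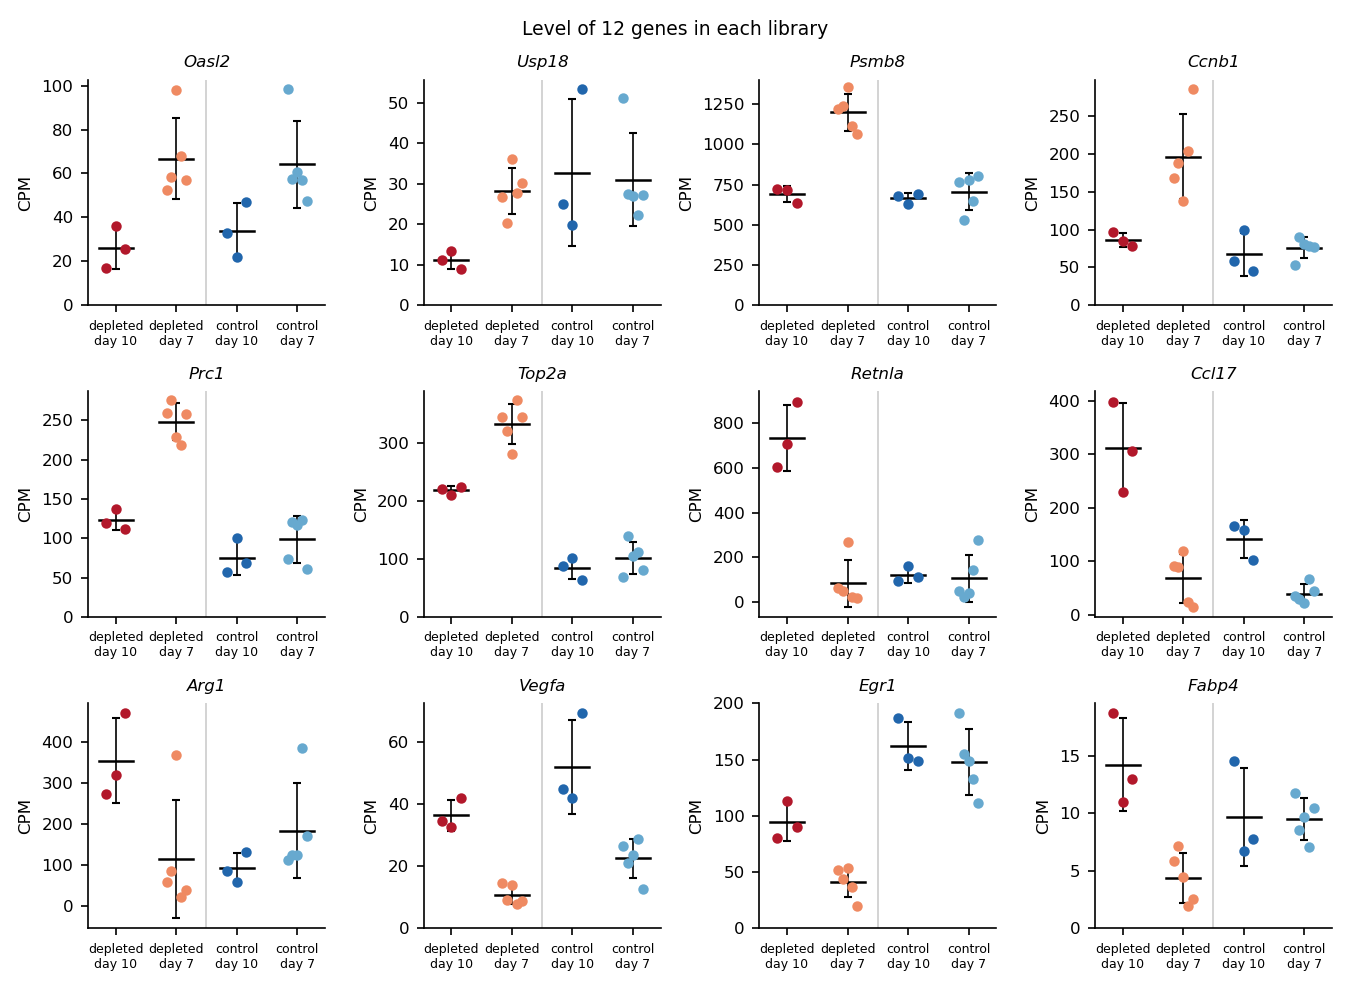
Points are libraries, bars are group means and whiskers are SD, on a linear CPM axis for each of 12 genes, with depleted day 10, depleted day 7, control day 10 and control day 7 from left to right. Oasl2, Prc1 and Ccnb1 are lower and Retnla, Ccl17 and Vegfa higher in all 3 day-10 depleted libraries than in the 5 day-7 depleted libraries, whereas Arg1 overlaps.

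Some growth factors of repair also rose. Of 21 tested of 24 listed, 5 rose, 0 fell and 16 did not pass (median 1.21), beside rises of 7.13% of all genes tested. Their summed level overlapped between the days (1321 to 1614 CPM at day 10, against 1071 to 1576 CPM at day 7). Vegfa (ENSMUSG00000023951, GRCm38 chromosome 17, 46016993 to 46032369), the growth factor of blood vessels, had 34.6, 32.7 and 42.2 CPM at day 10, against 14.6, 9.16, 13.9, 7.85 and 8.88 CPM at day 7. The lowest day-10 library was above the highest day-7 library (log2 change 1.75 ± 0.25 SE, edgeR adjusted p = 0.000338). Inhba, which encodes a subunit of activin A, a signal of the TGF-beta family, had 75.0, 40.2 and 76.1 CPM at day 10, against 25.3, 16.1, 24.7, 19.4 and 17.8 CPM at day 7. All day-10 libraries were higher (log2 change 1.62 ± 0.22 SE, edgeR adjusted p = 0.000178). Areg, a ligand of the EGF receptor, had 14.1, 10.3 and 14.9 CPM at day 10, against 4.58, 2.20, 3.59, 0.641 and 0.859 CPM at day 7. It was low throughout but separate by day (log2 change 2.46 ± 0.41 SE, edgeR adjusted p = 0.000854). Thbs1, a matrix glycoprotein that activates latent TGF-beta, was at 239 ± 15.4 CPM at day 10 and 103 ± 19.8 CPM at day 7 (log2 change 1.22 ± 0.17 SE, edgeR adjusted p = 0.000203). Plau, the urokinase, was at 8.41 ± 2.87 CPM at day 10 and 3.07 ± 1.67 CPM at day 7 (log2 change 1.42 ± 0.39 SE, edgeR adjusted p = 0.0216). Plau had an edgeR adjusted p of 0.164 without replicate 3 of day 10. Igf1, a growth factor of muscle and bone, and Tgfb1, the main TGF-beta of macrophages, did not pass (Igf1 log2 change 1.32, edgeR adjusted p = 0.155, Tgfb1 log2 change 0.39, edgeR adjusted p = 0.217). Thbs1 was chosen after its values were seen. The number of rises was 5 without the day-7 replicates 4 and 5, and 8 without replicate 3 of day 7 and without control replicate 4 of day 7.

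Some matrix proteases and inhibitors rose too. Of 18 tested of 19 listed, 4 rose, 0 fell and 14 did not pass (median 1.07), beside rises of 7.13% of all genes tested. Their summed level was 1968 to 2240.1 CPM at day 10, against 705 to 1635 CPM at day 7, without overlap. In control bone the sums did not overlap either, with 2527 to 2966 CPM at day 10, against 1582 to 2104 CPM at day 7. Mmp3, the stromelysin that cleaves matrix proteins, had 12.6, 7.46 and 5.98 CPM at day 10, against 2.62, 1.83, 0.422, 0.480 and 0.286 CPM at day 7. All day-10 libraries were higher (log2 change 2.89 ± 0.55 SE, edgeR adjusted p = 0.00238). Serpinb2, an inhibitor of urokinase made by macrophages, had 28.5, 28.1 and 32.2 CPM at day 10, against 9.82, 5.50, 13.5, 3.84 and 5.44 CPM at day 7. It was several-fold up in each day-10 library (log2 change 1.96 ± 0.42 SE, edgeR adjusted p = 0.00574). Timp3, a tissue inhibitor of metalloproteinases, was at 6.22 ± 2.17 CPM at day 10 and 1.49 ± 1.22 CPM at day 7 (log2 change 2.04 ± 0.55 SE, edgeR adjusted p = 0.0191). Timp3 had an edgeR adjusted p of 0.117 without replicate 3 of day 10. Counts of rises were 12 without replicate 3 of day 7, 7 without its replicate 1, 2 without replicate 3 of day 10 and 2 without the day-7 replicates 4 and 5. Fibroblasts also express Mmp3 and Timp3, and fibroblast markers rose in the same libraries, with values given further on. Their part in these rises was not tested.

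Some inflammatory genes rose while interferon genes fell. Of 26 cytokine and chemokine genes tested of 28 listed, 7 rose, 0 fell and 19 did not pass (median 0.53), and they summed to 3735 to 3892 CPM at day 10, against 1663 to 3335 CPM at day 7, without overlap. Il6 (ENSMUSG00000025746, GRCm38 chromosome 5, 30013114 to 30019981), a cytokine of acute inflammation, had 51.9, 40.9 and 45.5 CPM at day 10, against 21.0, 18.9, 9.91, 19.1 and 19.8 CPM at day 7. Every day-10 library held more than any day-7 library (log2 change 1.38 ± 0.26 SE, edgeR adjusted p = 0.00214). Cxcl16, a ligand that draws CXCR6-bearing T cells, had 95.2, 100.2 and 92.0 CPM at day 10, against 43.9, 49.5, 73.6, 32.0 and 21.5 CPM at day 7. The groups were separate (log2 change 1.11 ± 0.25 SE, edgeR adjusted p = 0.00797). Ccl9, a chemokine of the CC family, was at 483 ± 4.37 CPM at day 10 and 249 ± 58.5 CPM at day 7 (log2 change 0.95 ± 0.20 SE, edgeR adjusted p = 0.00526). Ptgs2, the inducible prostaglandin synthase COX-2, was at 51.6 ± 2.29 CPM at day 10 and 21.8 ± 8.26 CPM at day 7 (log2 change 1.23 ± 0.31 SE, edgeR adjusted p = 0.0145). Ptgs2 had an edgeR adjusted p of 0.0677 without replicate 3 of day 10. Cxcl2, a chemokine for neutrophils, was at 515 ± 26.7 CPM at day 10 and 183 ± 106 CPM at day 7 (log2 change 1.49 ± 0.44 SE, edgeR adjusted p = 0.0422), with its call lost in 10 of the 16 fits that each left out 1 library, with an adjusted p of up to 0.111. Counts of Cxcl2 were fractional in 16 of 16 libraries. The classical cytokines Il1b and Tnf and the anti-inflammatory Il10 did not pass (Il1b log2 change 0.56, edgeR adjusted p = 0.147, Tnf log2 change 0.27, edgeR adjusted p = 0.68, Il10 log2 change -0.16, edgeR adjusted p = 0.924), and Il10 stayed at or below 1.05 CPM in all 8 libraries. Of 16 NF-kappaB subunits and feedback genes, 3 rose and 2 fell, beside 7.13% and 5.04% of all genes, and 1 rose without replicate 3 of day 10 and without the day-7 replicates 4 and 5. Nfkbiz, an inhibitor-like cofactor needed for Il6, rose (151 ± 9.37 CPM at day 10 and 90.1 ± 13.7 CPM at day 7, log2 change 0.74 ± 0.14 SE, edgeR adjusted p = 0.00243), and Tnip1, a brake on the pathway, fell (45.8 ± 7.59 CPM at day 10 and 79.3 ± 16.4 CPM at day 7, log2 change -0.79 ± 0.18 SE, edgeR adjusted p = 0.0074). Tnip1 had an edgeR adjusted p of 0.0502 without replicate 1 of day 10. Ccl9 was chosen after its values were seen.

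Immediate early genes, which cells switch on within minutes of a stimulus and also during tissue dissociation, gave 11 rises and 0 falls among 23 tested of 24 listed (median 0.54), and they summed to 3469 to 4018 CPM at day 10, against 2129 to 3167 CPM at day 7, without overlap. Rises made up 7.13% of all genes tested. Ier5, an early regulator of stress responses, had 87.6, 89.5 and 97.3 CPM at day 10, against 36.9, 22.2, 24.3, 31.7 and 16.0 CPM at day 7. The day-10 libraries lay close together and were all higher (log2 change 1.79 ± 0.21 SE, edgeR adjusted p = 0.000105). Ier3, an early survival gene, was at 128 ± 5.85 CPM at day 10 and 49.7 ± 7.67 CPM at day 7 (log2 change 1.37 ± 0.21 SE, edgeR adjusted p = 0.000526). Egr1, a zinc finger transcription factor, had 80.4, 113 and 90.3 CPM at day 10, against 51.7, 43.8, 53.6, 36.8 and 19.8 CPM at day 7. Its groups were separate (log2 change 1.19 ± 0.23 SE, edgeR adjusted p = 0.00254). Jun, a subunit of AP-1, was at 214 ± 30.0 CPM at day 10 and 114 ± 29.3 CPM at day 7 (log2 change 0.91 ± 0.16 SE, edgeR adjusted p = 0.00169). The nuclear receptor gene Nr4a3 was at 30.0 ± 7.56 CPM at day 10 and 10.9 ± 3.78 CPM at day 7 (log2 change 1.44 ± 0.28 SE, edgeR adjusted p = 0.00303), whereas Fos, the partner of Jun in AP-1, did not pass (log2 change 0.14, edgeR adjusted p = 0.565). The number of rises was 5 without replicate 3 of day 10, 6 without its replicates 1 and 2 in turn, 7 without the day-7 replicates 2, 4 and 5 in turn, and 7 without the day-7 replicates 4 and 5 together. Heat shock genes, 14 in all, gave 5 rises, among them Hspa1a and Hspa1b, a pair of near-identical genes whose reads may have been divided (Hspa1a log2 change 1.65, edgeR adjusted p = 0.00132). The heat shock list gave 3 rises without replicates 2 and 3 of day 10 in turn and without the day-7 replicates 4 and 5, and its summed level overlapped (3689 to 3983 CPM at day 10, against 3211 to 4600.5 CPM at day 7). Jun, Ier3 and Egr1 were chosen after their values were seen.

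Among genes of lipid-associated macrophages, the scavenging cells of injured and fatty tissue, 6 of 24 rose, 0 fell and 18 did not pass (median 0.64), beside rises of 7.13% of all genes, and 21 were positive. Their summed level overlapped (12026 to 14569 CPM at day 10, against 7854 to 13754 CPM at day 7). Fabp4, a carrier of fatty acids, had 18.7, 11.0 and 13.0 CPM at day 10, against 5.89, 7.14, 4.43, 1.92 and 2.58 CPM at day 7. It was higher at day 10 in each library (log2 change 1.68 ± 0.36 SE, edgeR adjusted p = 0.00488). Cd9, a membrane tetraspanin, had 123, 131 and 111 CPM at day 10, against 71.6, 69.3, 69.4, 36.0 and 76.5 CPM at day 7. The groups did not overlap (log2 change 0.92 ± 0.19 SE, edgeR adjusted p = 0.00367). Trem2, the lipid receptor that drives this state, was at 151 ± 26.8 CPM at day 10 and 86.2 ± 25.3 CPM at day 7 (log2 change 0.81 ± 0.21 SE, edgeR adjusted p = 0.018). Trem2 had an edgeR adjusted p of 0.0899 and 0.0629 without replicates 2 and 3 of day 10. Fabp5, a related carrier, was at 111 ± 15.2 CPM at day 10 and 52.3 ± 16.8 CPM at day 7 (log2 change 1.09 ± 0.26 SE, edgeR adjusted p = 0.012). Fabp5 had an edgeR adjusted p of 0.0524 and 0.062 without replicates 1 and 3 of day 10, and its counts were fractional in 13 of 16 libraries. Apoe, a lipid-carrying apolipoprotein, and Spp1, the matrix protein osteopontin, did not pass (Apoe log2 change 0.18, edgeR adjusted p = 0.675, Spp1 log2 change 0.65, edgeR adjusted p = 0.316). The number of rises was 12 without replicate 3 of day 7, 3 without replicates 1 and 3 of day 10 in turn, and 3 without the day-7 replicates 4 and 5.

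Genes of established tissue macrophages were called about as often as all genes tested (12.2%). Of 22 tested of 24 listed, 1 rose, 2 fell and 19 did not pass (median 0.37), and the list summed to 1348 to 2044 CPM at day 10, against 1537 to 2176 CPM at day 7, with overlap. Cx3cr1, the fractalkine receptor, fell, with 17.7, 25.9 and 21.6 CPM at day 10, against 43.9, 46.9, 28.9, 25.5 and 46.4 CPM at day 7. The lowest day-7 library lay just below the highest day-10 library (log2 change -0.81 ± 0.22 SE, edgeR adjusted p = 0.0188), and the adjusted p was 0.101 and 0.0814 without replicates 1 and 3 of day 10. F13a1, a transglutaminase of blood clotting, fell (407 ± 38.1 CPM at day 10 and 613 ± 90.1 CPM at day 7, log2 change -0.59 ± 0.14 SE, edgeR adjusted p = 0.0105). F13a1 had an edgeR adjusted p of 0.0604 without replicate 1 of day 10. C1qa, a subunit of complement C1q, did not pass (104 ± 57.1 CPM at day 10 and 58.5 ± 21.8 CPM at day 7, log2 change 0.83 ± 0.32 SE, edgeR adjusted p = 0.0971).

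Of 20 monocyte genes tested, 2 rose, 2 fell and 16 did not pass (median -0.23), near the shares of all genes that rose (7.13%) and fell (5.04%). S100a4, a calcium-binding protein of motile cells, had 755, 700.4 and 845 CPM at day 10, against 325, 211, 278, 259 and 227 CPM at day 7. The day-10 libraries were all far above the day-7 libraries (log2 change 1.56 ± 0.23 SE, edgeR adjusted p = 0.000545), although counts of this gene were fractional in 15 of 16 libraries. Fn1, the matrix protein fibronectin, rose (1549 ± 358 CPM at day 10 and 925 ± 256 CPM at day 7, log2 change 0.74 ± 0.19 SE, edgeR adjusted p = 0.0139). Fn1 had an edgeR adjusted p of 0.0909 and 0.0573 without replicates 2 and 3 of day 10. Eno3, a muscle-type enolase, fell (12.2 ± 4.04 CPM at day 10 and 29.9 ± 20.1 CPM at day 7, log2 change -1.29 ± 0.37 SE, edgeR adjusted p = 0.0294), with its call lost in 3 of the 16 fits that each left out 1 library, with an adjusted p of up to 0.132. Ly6c2, the surface marker of classical monocytes, lay lower in every day-10 library without passing, with 1941, 1878 and 1509 CPM at day 10, against 2376, 2847, 3016, 2330.2 and 2336 CPM at day 7 (log2 change -0.54 ± 0.20 SE, edgeR adjusted p = 0.0791). Ccr2, the receptor that brings monocytes to wounds, did not pass and overlapped (704 ± 27.0 CPM at day 10 and 664 ± 82.4 CPM at day 7, log2 change 0.083 ± 0.13 SE, edgeR adjusted p = 0.719). MHC class II genes gave 2 rises among 11, H2-Ab1, a class II beta chain (1633 ± 299.5 CPM at day 10 and 840.2 ± 333 CPM at day 7, log2 change 0.96 ± 0.26 SE, edgeR adjusted p = 0.0246), and H2-DMb2, a peptide-loading chain with a near-identical copy, with calls lost in 3 of the 16 fits that each left out 1 library, with an adjusted p of up to 0.0959, and in 5 of the 16 fits that each left out 1 library, with an adjusted p of up to 0.177.

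Osteoclast genes gave 0 rises and 2 falls among 17 tested of 19 listed (median -0.11), beside falls of 5.04% of all genes. Nfatc1, the master transcription factor of osteoclasts, had 28.1, 29.5 and 26.6 CPM at day 10, against 42.6, 52.6, 52.1, 50.8 and 43.8 CPM at day 7. All day-10 libraries were lower (log2 change -0.79 ± 0.18 SE, edgeR adjusted p = 0.00806), with an adjusted p of 0.0525 without replicate 3 of day 10. Oscar, a receptor that costimulates osteoclast formation and was chosen after its values were seen, had 1 count over the 3 day-10 libraries and 83 over the 5 day-7 libraries, that is 0, 0 and 0.332 CPM at day 10, against 7.42, 3.30, 2.95, 2.08 and 1.15 CPM at day 7. It passed (edgeR adjusted p = 0.0131), but not when any of the 3 day-10 libraries was left out (adjusted p = 0.0612, 0.0519 and 0.051). The effector genes of resorption, Acp5 (tartrate-resistant acid phosphatase), Ctsk (cathepsin K) and Mmp9 (a gelatinase), overlapped and did not pass. Acp5, for one, had 149, 136 and 199.6 CPM at day 10, against 428, 408, 302, 203 and 137 CPM at day 7 (log2 change -0.87 ± 0.36 SE, edgeR adjusted p = 0.129).

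Transcripts encoded by the mitochondrial genome were higher at day 10. Of 12 tested of 13 listed, 9 rose, 0 fell and 3 did not pass (median 1.02), and they summed to 9496 to 12996 CPM at day 10, against 6006 to 8322 CPM at day 7. Among all genes tested, 7.13% rose and 5.04% fell. mt-Nd5, a subunit of complex I, had 177, 155 and 212 CPM at day 10, against 78.1, 54.2, 81.0, 94.0 and 51.6 CPM at day 7. The groups were separate (log2 change 1.33 ± 0.20 SE, edgeR adjusted p = 0.00035). mt-Co1, the catalytic subunit of complex IV, was at 1346 ± 364 CPM at day 10 and 639 ± 95.4 CPM at day 7 (log2 change 1.08 ± 0.18 SE, edgeR adjusted p = 0.0008), and mt-Atp8, a subunit of the ATP synthase, at 251 ± 60.7 CPM at day 10 and 87.7 ± 34.5 CPM at day 7 (log2 change 1.52 ± 0.29 SE, edgeR adjusted p = 0.0033). mt-Co1 was chosen after its values were seen. Counts of mt-Nd5 and mt-Co1 were fractional in every library, so their level is uncertain. Whether reads were shared with nuclear copies was not tested. 9 members rose also without the day-7 replicates 4 and 5, and 6 without replicate 3 of day 10. Nuclear genes of the respiratory chain gave 0 rises and 1 fall among 33 (median -0.20); Uqcrc1, a core subunit of complex III, fell (179 ± 25.0 CPM at day 10 and 303 ± 50.5 CPM at day 7, log2 change -0.76 ± 0.16 SE, edgeR adjusted p = 0.00394). Ribosomal protein genes gave 18 rises and 0 falls among 82 (median 0.25) and took 12.3 to 13.7% of counts at day 10, against 10.3 to 11.9% at day 7. Shares of mitochondrial transcripts and ribosomal protein genes are read as signs of RNA or cell quality in such libraries, and their part in the other results was not tested. Rn18s-rs5, a ribosomal RNA gene, overlapped between the days (67052 to 105266 CPM at day 10, against 48752 to 107582 CPM at day 7).

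Calls in other metabolic lists stand beside rises of 7.13% and falls of 5.04% of all genes. Of 25 glycolysis and hypoxia genes 3 rose and 2 fell, of 24 sterol and fatty acid genes 2 rose and 1 fell, of 29 lysosomal genes 4 rose and 3 fell, of 17 iron and haem genes 1 rose and of 19 efferocytosis genes 1 rose and 1 fell. The glycolysis rises numbered 0 without replicate 3 of day 10, 1 without the day-7 replicates 2 and 5 in turn or 4 and 5 together, and 7 without replicate 3 of day 7. Lysosomal rises numbered 0 without replicate 1 of day 10 and 1 or 2 in 9 other fits that left out 1 library, and lysosomal falls 0 without replicate 3 of day 10. Pgk1, a glycolytic kinase, rose (347 ± 10.8 CPM at day 10 and 237 ± 18.1 CPM at day 7, log2 change 0.55 ± 0.13 SE, edgeR adjusted p = 0.012, and adjusted p = 0.0568 without replicate 3 of day 10), whereas Hk3, the hexokinase of myeloid cells, fell (53.7 ± 7.40 CPM at day 10 and 78.2 ± 8.01 CPM at day 7, log2 change -0.54 ± 0.14 SE, edgeR adjusted p = 0.0154). Hk3 had an edgeR adjusted p of 0.0902 without replicate 1 of day 10. Scd2, a desaturase that makes monounsaturated fatty acids, rose (26.8 ± 4.46 CPM at day 10 and 9.85 ± 2.63 CPM at day 7, log2 change 1.44 ± 0.25 SE, edgeR adjusted p = 0.00126). Hmox1, the enzyme that breaks down haem, did not pass (10.1 ± 3.43 CPM at day 10 and 11.1 ± 1.92 CPM at day 7, log2 change -0.14 ± 0.36 SE, edgeR adjusted p = 0.846).

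Markers of other cells moved in the same libraries. Fibroblast and mural cell markers summed to 3455, 3465 and 3103 CPM at day 10, against 2458, 1192, 1036, 240.7 and 240.6 CPM at day 7, and no marker was at 0. Every day-10 library was higher, and the day-7 libraries differed widely among themselves. Of 17 tested of 18 listed, 6 rose, 0 fell and 11 did not pass, all 17 being positive (median 1.73), beside rises of 7.13% of all genes. The number of rises was 1 without replicate 3 of day 10, 2 without its replicates 1 and 2 in turn, 10 without replicate 1 of day 7, 3 without each other day-7 replicate in turn and 2 without the day-7 replicates 4 and 5 together. Cxcl12, the chemokine of stromal niches, had 33.2, 41.2 and 52.2 CPM at day 10, against 7.20, 8.61, 7.17, 7.05 and 9.74 CPM at day 7. It was high in all day-10 libraries and nearly level in the day-7 libraries (log2 change 2.41 ± 0.30 SE, edgeR adjusted p = 0.000127). Dcn, the collagen-binding proteoglycan decorin, had 150.3, 158 and 126 CPM at day 10, against 61.1, 42.0, 44.3, 11.4 and 10.6 CPM at day 7. It was higher in all day-10 libraries (log2 change 2.09 ± 0.55 SE, edgeR adjusted p = 0.0261) and lost its call in 3 of the 16 fits that each left out 1 library, with an adjusted p of up to 0.0721. Erythroid markers gave 5 rises among 5 tested of 11 listed and summed to 739 to 1049 CPM at day 10, against 38.6 to 187 CPM at day 7, with the erythropoietin receptor gene Epor at 0 in all day-10 libraries. Hbb-bs, a beta-globin gene, was at 247 ± 60.0 CPM at day 10 and 33.7 ± 21.3 CPM at day 7 (log2 change 2.89 ± 0.58 SE, edgeR adjusted p = 0.00792); globin genes come in near-identical pairs, so each level is uncertain. T and NK cell markers gave 1 rise and 1 fall among 17 tested of 22 listed (median -0.54) and summed to 294 to 430.4 CPM at day 10, against 221 to 666 CPM at day 7, with replicate 3 of day 7 the highest at 666 CPM. Ncr1, an NK cell receptor, was at 0 in all day-10 libraries, and Ifng, the gene of interferon-gamma, was too low to test. Of 21 neutrophil markers tested 1 rose, Il1r2, a decoy receptor for IL-1 (161 ± 41.1 CPM at day 10 and 78.2 ± 24.9 CPM at day 7, log2 change 1.04 ± 0.27 SE, edgeR adjusted p = 0.0179). Il1r2 had an edgeR adjusted p of 0.115 without replicate 1 of day 10. B and plasma cell markers summed to 449.9 to 634 CPM at day 10, against 485 to 783 CPM at day 7, with 1 rise and 1 fall among 10 tested. Dendritic cell markers summed to 547 to 576 CPM at day 10, against 580.1 to 820.0 CPM at day 7, with 1 rise and 1 fall among 11. Progenitor markers gave 2 rises among 10, regulatory T cell markers 1 among 3 and osteoblast and chondrocyte markers 1 among 6, while 0 of 4 endothelial and 0 of 4 platelet markers passed. The part of all these markers in the changes described here was not tested, and without the day-7 replicates 4 and 5, which are lowest in fibroblast markers, 867 genes passed.

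The 10 largest rises under the rule for named genes were Ccl11, Col6a5, Cyp1b1, Dpep1, Gas1, H2-M2, Lrrn4cl, Mamdc2, Plac9 and Smpd3. Their separation by day in depleted cells was set by that rule. Of these Plac9, a small secreted protein, was the most abundant, with 64.9, 119 and 93.0 CPM at day 10, against 15.9, 5.50, 13.5, 2.08 and 8.59 CPM at day 7. Its log2 change was 3.36 ± 0.59 SE (edgeR adjusted p = 0.00337). Ccl11, the eosinophil chemokine eotaxin, had 10.1, 12.8 and 11.3 CPM at day 10, against 2.40, 1.65, 1.27, 0 and 0.286 CPM at day 7. Ccl11 had a log2 change of 3.31 ± 0.76 SE (edgeR adjusted p = 0.00863). H2-M2, a nonclassical MHC class I gene, had 6.13, 39.1 and 6.64 CPM at day 10, against 1.96, 1.10, 1.05, 0.961 and 0.573 CPM at day 7. Replicate 2 of day 10 was far above all others, and the log2 change of 3.88 was 2.44 without it (edgeR adjusted p = 0.0144). Smpd3, a sphingomyelinase of bone and cartilage, had 5.77, 8.53 and 16.6 CPM at day 10, against 0.655, 0.550, 1.69, 0.801 and 0.573 CPM at day 7 (log2 change 3.54 ± 0.61 SE, edgeR adjusted p = 0.00126). Dpep1 and Cyp1b1, a dipeptidase and a cytochrome, rose as well (Dpep1 log2 change 3.53, edgeR adjusted p = 0.00137, Cyp1b1 log2 change 3.50, edgeR adjusted p = 0.0024). The other 4 had log2 changes of 3.48 for Col6a5, 3.54 for Gas1, 3.46 for Lrrn4cl and 3.45 for Mamdc2, with Gas1 at 2.94 and Lrrn4cl at 2.71 without replicate 2 of day 10, Gas1 at 4.29 and Mamdc2 at 4.05 without replicate 3 of day 7, and Col6a5 losing its call without replicate 3 of day 10 (adjusted p = 0.053). In control bone, H2-M2, Gas1, Dpep1, Lrrn4cl and Plac9 were also higher at day 10 without overlap (log2 change 1.88, 1.89, 1.71, 2.14 and 2.04). Ccl11, Cyp1b1 and Mamdc2 were positive with overlap (2.62, 1.23 and 0.64), and Smpd3 and Col6a5 were negative (-0.90 and -2.21). None of the 10 passed in controls. Fibroblast markers rose in the same depleted libraries, and their part in these rises was not tested.

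The same interval in mice that keep their Tregs gave far fewer calls, and no single gene passed the test of a difference between the time courses. In control bone macrophages, 5 genes (0.0393%) passed between day 10 (3 libraries) and day 7 (5 libraries), all higher: Mmp3, Gem, Hspa1a, Inhba and Igfbp4. The control groups did not overlap for 843 genes (6.63%), 476 of them higher at day 10 (3.75%) and 367 lower (2.89%). At an unadjusted p under 0.05 there were 1259 genes (9.91%). Mmp3 was at 28.4 ± 20.5 CPM at day 10 and 3.66 ± 1.26 CPM at day 7 in controls (log2 change 2.92 ± 0.46 SE, edgeR adjusted p = 0.0214), beside a log2 change of 2.89 in depleted cells. Median standard errors of the log2 change were alike in both comparisons, 0.27 in depleted and 0.28 in control cells. The difference of the time courses, tested for each gene as an interaction in edgeR's quasi-likelihood fit, was called for 0 of 12709 genes (lowest adjusted p 0.0692), with 1591 at an unadjusted p under 0.05, 201 called by DESeq2 and 0 by limma-voom. Its median standard error was larger, 0.39.

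Directions were mostly shared. Of the 906 genes that rose in depleted cells, 692 (76.4%) had a positive log2 change in controls too, with medians of 1.12 in depleted and 0.25 in control cells, and of the 641 that fell 498 (77.7%) were negative in controls, with medians of -0.73 and -0.14. These genes were chosen by their depleted change, so that the larger depleted medians are a description and no test. List medians in depleted and control cells were -0.80 and -0.084 for interferon response genes, -0.48 and -0.14 for cell cycle genes, 0.99 and 0.30 for type 2 genes and 1.73 and 1.03 for fibroblast markers. Matrix protease and inhibitor genes had 1.07 and 0.69, immediate early genes 0.54 and 0.20 and heat shock genes 0.37 and 0.25. Medians were 1.21 and 0.29 for growth factor genes and 0.53 and 0.14 for cytokine and chemokine genes. Lipid-associated macrophage genes had medians of 0.64 and 0.0023. For tissue macrophage genes the medians were 0.37 and -0.71, with 16 of 22 positive in depleted and 22 of 22 negative in control cells. Mitochondrial transcripts had medians of 1.02 and -0.19. Among genes described above, the log2 difference between the courses was 4.44 ± 0.92 SE, edgeR adjusted p = 0.0692 for Smpd3, 1.24 ± 0.25 SE, edgeR adjusted p = 0.0692 for mt-Co1, 0.89 ± 0.20 SE, edgeR adjusted p = 0.0768 for Nfkbiz, 1.51 ± 0.34 SE, edgeR adjusted p = 0.0768 for S100a4 and 1.02 ± 0.24 SE, edgeR adjusted p = 0.0792 for Thbs1. None passed, and a p that misses the threshold does not show that the courses were alike.

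**Figure D4:**
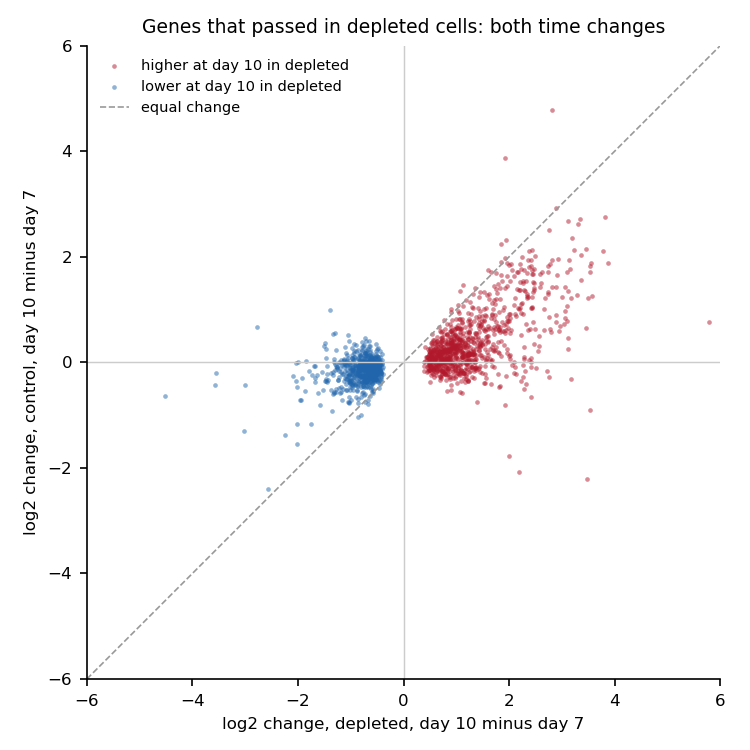
Each point is 1 of the 1547 genes that passed in depleted cells; the horizontal axis is its log2 change between day 10 and day 7 in depleted cells, the vertical axis the same change in control cells, and the dashed line marks equal change. Most of the 906 rises and 641 falls share their sign with the control change but lie nearer to 0 on the vertical axis, where the medians are 0.25 and -0.14.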

How the data were processed

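Libraries were made from 20 ng RNA as 3′ reads carrying unique molecular identifiers, per the labels' protocols, with no statement on collapsing them. The authors deposited unscaled estimated counts per gene for bone, muscle and skin, made with STAR, featureCounts and limma on GRCm38 or GRCm39 (both are listed), per the submitters' processing notes. Of the non-zero values in the bone libraries, 18.9% were not whole within 0.01, and rounding was applied throughout. Genes with fractional counts in most libraries may share reads with other genes, which was not tested. Identifiers of 52029 of 57010 genes matched GENCODE M21 (GRCm38), the source of gene coordinates.

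The 16 bone libraries were fitted together in edgeR 4.0.16 (R 4.3.3) by group: TMM normalization, filterByExpr, robust quasi-likelihood fits, Benjamini-Hochberg adjustment over the 12709 genes tested, threshold 0.05. CPM are rounded counts over TMM-scaled library size, a log2 change is day 10 minus day 7, and its SE is the absolute change over the square root of F. Counts were simulated with 200 genes changed, all drawn from genes averaging at least 5 CPM. In the depleted comparison 53% of 2-fold and 96% of 4-fold changes were found, with 4 false calls. Pairs of replicates differed by more than counting noise (chi-square divided by its degrees of freedom 7.77 to 27.2), so none repeated the reads of another. That does not show whether they came from separate animals. Replicate numbers of the labels, which differ from the numbers in the column names, showed no pairing of libraries across days (correlation of deviations -0.036 to 0.052 in depleted groups). A pairing or batch that does not follow these replicate numbers was not examined.

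Alternatives were RLE normalization, no count filter, DESeq2 1.42.0, limma-voom (limma 3.58.1), the replicate number as a block, Rn18s-rs5 as a covariate, the compared groups alone and each library left out; 2 others were added after the data were seen. Members, gene lists and the rule were chosen with earlier results of these data known. The rule names, among called genes with a symbol and a mean of at least 5 CPM in 1 group, the 10 largest changes per direction without overlap (6 in controls), up to 4 members of each of 36 lists, and a panel of 28 genes whatever their call. Sequences are from RefSeq promoter windows (GRCm38.p6). Other tissues were not analysed here. Some members are not reported here.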

Additional observations from a re-analysis of the deposited data

Results flagged for a closer look

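In 382 groups of 5 libraries examined for a value far from the others (named genes and list sums at day 7), 29 had one, 15 in depleted and 14 in control cells. The cut-off used would mark about 1 in 20 groups of independent, normally distributed values. These groups share libraries and genes, so the count of 29 is a description and no test. Groups of 3 libraries were not examined.

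In depleted cells at day 7, replicate 3 held most of these values. It was high in the interferon genes Irf7 (391.9 CPM) and Cxcl9 (189.8 CPM), in the type 2 genes Retnla (269 CPM), Arg1 (368 CPM) and Mrc1 (67.9 CPM), and in Smpd3 (1.69 CPM), and low in Il6 (9.91 CPM). Its summed levels were likewise high for tissue macrophage genes (2176 CPM), type 2 genes (1343 CPM) and lysosomal genes (16909 CPM). Without this library, 13 interferon genes fell, against 15 with it, and 8 type 2 genes rose, against 5 with it. Replicate 4 was low in Clec4n (29.5 CPM) and Cd9 (36.0 CPM), replicate 1 high in Eno3 (65.0 CPM) and the matrix protein gene Mgp (17.7 CPM), and replicate 5 low in the bone transcription factor gene Runx2 (2.86 CPM).

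In control cells at day 7, replicate 4 was high in Arg1 (386 CPM), Tnf (44.0 CPM), S100a4 (671 CPM), Pgk1 (341 CPM) and Nlrc4 (9.85 CPM). Replicate 1 was high in the interferon genes Oasl2 (98.5 CPM), Usp18 (51.0 CPM) and Tgtp1 (20.5 CPM), and replicate 5 in Il4 and Col6a5 (0.907 CPM each) and the T cell costimulator gene Tnfrsf4 (8.16 CPM). Replicate 2 was high in Mmp9 (541.5 CPM) and low in the sums of lipid-associated macrophage genes (21940.4 CPM) and MHC class II genes (7338 CPM).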

How the results depend on the processing

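The count of genes called in depleted cells was 867 without the day-7 replicates 4 and 5 (lowest in fibroblast markers), tried after seeing the data, and 557 (without replicate 3 of day 10) to 1675 with each of the 16 libraries left out. It was 1325 to 1915 under the other alternatives, within 1.5 times the 1547 reported. The 5 control calls became 176 with no filter on low counts, 61 with DESeq2, 9 with limma-voom, 0 with the Rn18s-rs5 covariate, 13 with the compared groups alone, 20 without the depleted day-7 replicates 4 and 5, 21 with counts thinned to the smallest library (also tried after seeing the data) and 0 to 12 with each library left out. The 0 calls for the difference of time courses became 166 with no filter, 201 with DESeq2, 36 with the replicate block and 0 to 27 with each library left out. The cause of these shifts was not tested. Replicate numbers of the labels showed no pairing of the libraries (correlations of deviations -0.036 to 0.052 in depleted and -0.080 to 0.0030 in control groups). The replicate block, which uses only these numbers, gave 1325 depleted and 6 control calls. Of 133 genes called in depleted cells and examined singly, 55 kept their call with each library left out and 78 lost it in some fit. DESeq2 kept 133, RLE normalization 132, limma-voom 123, the Rn18s-rs5 covariate 122 and the replicate block 113, and none of the 133 changed sign under any alternative. Of simulated 2-fold changes in genes averaging at least 5 CPM, 53% were found, so a gene not called may have changed. Changes in genes below that level were not simulated.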

Other observations

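Single genes of lists counted above, of which Scd1 was chosen after its values were seen, had these values in depleted cells. They stand beside rises of 7.13% and falls of 5.04% of all genes tested. Among 12 macrophage identity genes, 3 rose and 1 fell, with 0 rises without replicates 1 and 2 of day 10 and replicate 5 of day 7 in turn and without the day-7 replicates 4 and 5 together, and 1 without replicate 3 of day 10 and without replicate 4 of day 7. Of these, Ptprc (the pan-leukocyte phosphatase CD45) and Cd14 (the lipopolysaccharide coreceptor) rose and Fcgr1 (the high-affinity IgG receptor) fell, with log2 changes of 0.49, 0.52 and -0.87 (edgeR adjusted p = 0.0354, 0.0226 and 0.024). Scd1, the desaturase related to Scd2, rose as well, with a log2 change of 2.73 (edgeR adjusted p = 0.0101), while Fdps, an enzyme of cholesterol synthesis, fell (log2 change -0.65, edgeR adjusted p = 0.0197). Tfrc, the transferrin receptor, rose (log2 change 1.07, edgeR adjusted p = 0.0428). Calls were lost without replicate 3 of day 10 for Scd1 (adjusted p = 0.083), without replicates 2 and 3 of day 10 for Fcgr1 (adjusted p = 0.0963 and 0.0924) and without its replicates 1 and 3 for Fdps (adjusted p = 0.0521 and 0.102). They were lost for Ptprc in 5 of the 16 fits that each left out 1 library, with an adjusted p of up to 0.132, for Cd14 in 4 of the 16 fits that each left out 1 library, with an adjusted p of up to 0.117 and for Tfrc in 7 of the 16 fits that each left out 1 library, with an adjusted p of up to 0.148.

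Among 1219 pseudogenes tested, 103 rose and 8 fell in depleted cells, beside 725 that rose and 623 that fell of 10849 protein-coding genes. Reads of pseudogenes can come from their parent genes, so these counts are a description only.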
